A study of Saccharomyces cerevisiae with 12 samples.

Results

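The 47 genes described here make the enzymes that build, supply and attach the mannose-rich glycans of Saccharomyces cerevisiae proteins. They were taken from a list of systematic names chosen by function, and the rule for membership uses no measured value, although the list was made with earlier results of these data known. The list covers protein O-mannosylation (8 genes), the assembly of the lipid-linked oligosaccharide (14 genes), the oligosaccharyltransferase (9 genes), the Golgi mannosyltransferases (11 genes) and the supply of the mannose donors (5 genes). All 47 were found among the 6600 features of the count table, and all 47 passed the filter on low values.

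The samples were flasks of BY4741, a haploid laboratory strain of the S288C background that carries deletions of HIS3, LEU2, MET17 and URA3. Each flask was inoculated with few cells and grown for 20 h at 30 °C in 5% YPD, a rich glucose medium. Condition 1 was grown without PeAfpA, a cationic antifungal protein of the mould Penicillium expansum. Conditions 2, 3 and 4 were grown with 1, 2 and 4 µg/mL PeAfpA, and each condition has 3 flasks, A to C, so that library 4C is the third flask at 4 µg/mL. PeAfpA was present throughout growth and the libraries were taken at 1 time, so dose and the growth stage that a culture had reached cannot be told apart. Library preparation was from whole cultures, in which fewer cells using a gene and less RNA per cell cannot be told apart. The labels name the tissue as mycelia, although this strain grows as budding single cells.

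In yeast, mannose enters glycans from GDP-mannose, or from dolichol phosphate mannose that is itself made from GDP-mannose. In the endoplasmic reticulum, Pmt proteins transfer the first mannose of O-linked chains to serine and threonine, while the Alg enzymes build an oligosaccharide on dolichol that the oligosaccharyltransferase moves to asparagine. In the Golgi, N-linked cores are extended into the long branched mannans that form the outer layer of the cell wall, and short O-linked chains are completed.

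The 12 libraries held 7153797 to 10270183 counts, and replicates differed by 15.1 to 190 times the squared counting error, so the spread between flasks and not depth set the precision. LEU2, URA3 and MET17 had 0 counts in all 12 libraries. STE2, the receptor of MATa cells, had 855 to 4740 counts and STE3, the receptor of MATalpha cells, had 94 to 299, so that reads of STE3 were few but not absent in this MATa strain. Libraries 2A and 4C stood apart from the others of their conditions. Their TMM scaling factors were 0.846 and 0.808, against 0.990 to 1.12 in the other libraries. Among the 22 glycosylation genes that rose at 4 µg/mL, 4C was the highest library of condition 4 for 22, and 2A was above all 3 controls for 20. By comparison, 2B was above all 3 controls for 2 of them and 2C for 1. Values below are normalized counts, that is counts scaled by the TMM factors to the mean library size, unless TPM is named. Levels of different genes are compared only in TPM (a share of the library that is corrected for coding length). The rank of 4C depends on the scaling. In 4A, 4B and 4C, OCH1 had 266, 224 and 201 TPM and MNN1 had 114, 87.6 and 84.1, while PSA1 had 979, 1145 and 1563.

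At 4 µg/mL PeAfpA, 22 of the 47 glycosylation genes rose and 3 fell. A gene is said to rise or fall where its adjusted p was under 0.05 in edgeR's quasi-likelihood test over 5903 genes, with Benjamini-Hochberg adjustment. Of all genes tested, 19.3% were higher and 23% were lower in this comparison, and 42.3% passed in either direction. The corresponding shares of the glycosylation genes were 46.8% higher and 6.38% lower. The median log2 fold change was 0.40 over the 47 genes and -0.04 over all genes. The share of genes that rose was 4 of 5 for mannose donor supply, 6 of 9 for the oligosaccharyltransferase, 4 of 8 for O-mannosylation, 4 of 11 for the Golgi mannosyltransferases and 4 of 14 for the lipid-linked oligosaccharide. The 3 that fell were PMT3, PMT5 and ALG1. In 28 genes all 3 libraries of condition 4 lay above all 3 controls (27.5% of all genes did so), and in 6 they lay below (31.7% of all genes). For any single gene, an exact two-sided permutation test of 3 against 3 libraries cannot go below p = 0.1, the value that groups without overlap give. Without library 4C, 15 genes rose and 2 fell, where 11.2% of all genes were higher and 14% lower: the calls of PMT1, KTR1, WBP1, STT3, ALG8, MNN9, MNN10 and ALG1 were lost. Leaving out 1A, 1B or 1C also left 15 genes higher, where 1951, 1807 and 1657 of the 5903 genes were called in either direction. Over 22 alternative fits MNN10 kept its call in 7, WBP1 in 9, ALG8 in 11 and PMT1 in 15. STT3, MNN9 and ALG1 kept theirs in 16 and KTR1 in 18. PMT3 lost its call in 2 of the 22 alternatives, without 1C and without 4B.

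**Figure D1:**
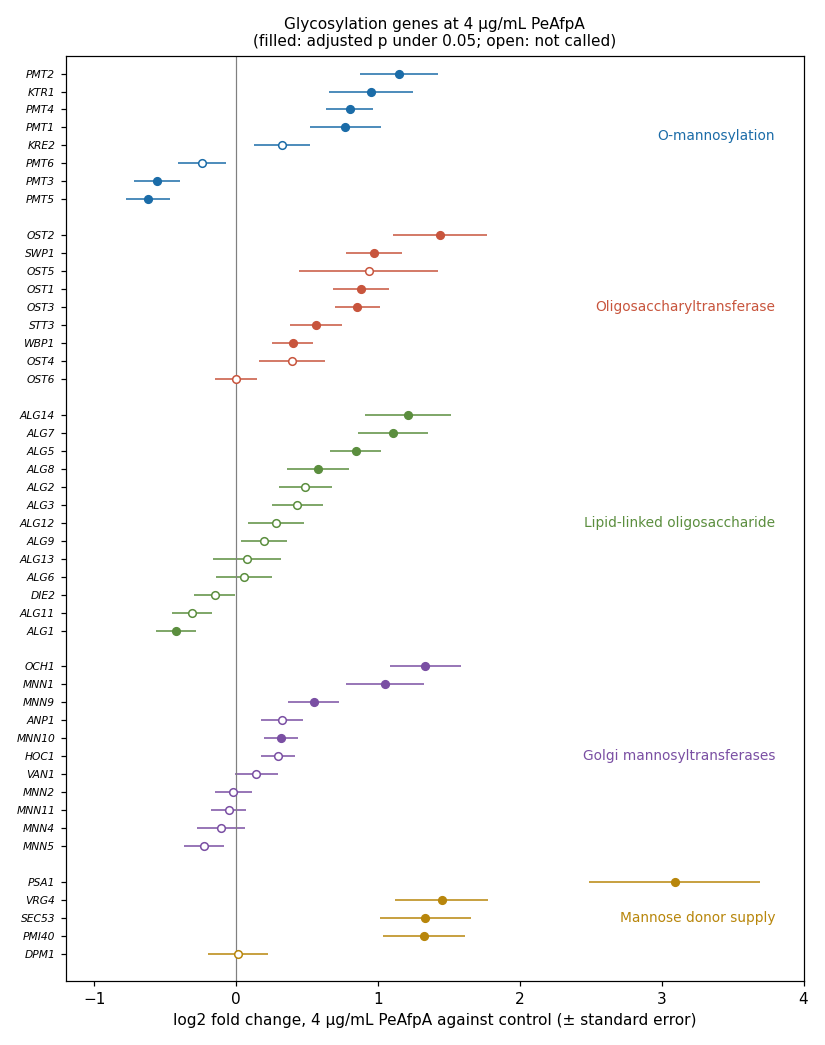
The log2 fold change of 46 of the 47 genes at 4 µg/mL PeAfpA against control is plotted with its standard error, by functional group, with 3 libraries per condition. Filled points passed the test and open points did not; PSA1 lies farthest to the right at 3.09, and PMT3, PMT5 and ALG1 are the filled points left of 0.

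PSA1, which encodes the GDP-mannose pyrophosphorylase and so makes the donor that every mannosyltransferase on the list depends on directly or through dolichol phosphate mannose, had the largest change of the 47. The gene (YDL055C) lies at chrIV:355674-356759 on the minus strand of the R64 assembly. Its normalized counts were 2380, 1744 and 1555 in the controls. They were 12436, 2556 and 2147 at 1 µg/mL, and 5297, 3308 and 3467 at 2 µg/mL. At 4 µg/mL they were 10986, 13515 and 23919, and every one of these was over 4 times the highest control. The rise was 8.52-fold (log2 fold change 3.09, SE 0.60, edgeR adjusted p = 0.0028). In TPM, PSA1 went from 186 ± 43.9 to 1229 ± 301 (SD, n = 3), which moved it from rank 974 to rank 165 of 5917 genes.

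At 2 µg/mL all 3 PSA1 libraries were above all controls, but the change did not pass the test (log2 fold change 1.09, SE 0.56, edgeR adjusted p = 0.54). At 1 µg/mL the log2 fold change of 1.59 rested on library 2A and was 0.32 without it. With both 2A and 4C left out, a choice made after seeing the data, PSA1 rose at 2 µg/mL by 1.10 on the log2 scale (edgeR adjusted p = 0.035).

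The next enzymes back along the same route also rose. SEC53 (YFL045C) encodes phosphomannomutase, which supplies the mannose phosphate that Psa1 uses. Its normalized counts were 1774, 2076 and 1992 in the controls and 3422, 3825 and 7490 at 4 µg/mL (log2 fold change 1.33, SE 0.32, edgeR adjusted p = 0.0075). PMI40 (YER003C), which encodes the phosphomannose isomerase that draws mannose phosphate from fructose phosphate, had 1322, 1577 and 1253 in the controls and 2929, 2877 and 4605 at 4 µg/mL (log2 fold change 1.33, SE 0.29, edgeR adjusted p = 0.0048). In each gene the groups did not overlap, and the 3 libraries of condition 4 held 2 values close to each other with 4C above them.

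VRG4 (YGL225W) encodes the carrier that brings GDP-mannose into the Golgi. Its counts were 1077, 759 and 833 in the controls and 2088, 1957 and 3250 at 4 µg/mL, a rise of 2.73-fold (log2 fold change 1.45, SE 0.33, edgeR adjusted p = 0.0054). DPM1, which encodes the synthase of dolichol phosphate mannose, was the exception in this group. It had 991, 1571 and 1314 in the controls and 1108, 1359 and 1448 at 4 µg/mL, with a log2 fold change of 0.01 and a 95% interval from -0.40 to 0.42. The groups of DPM1 overlapped.

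**Figure D2:**
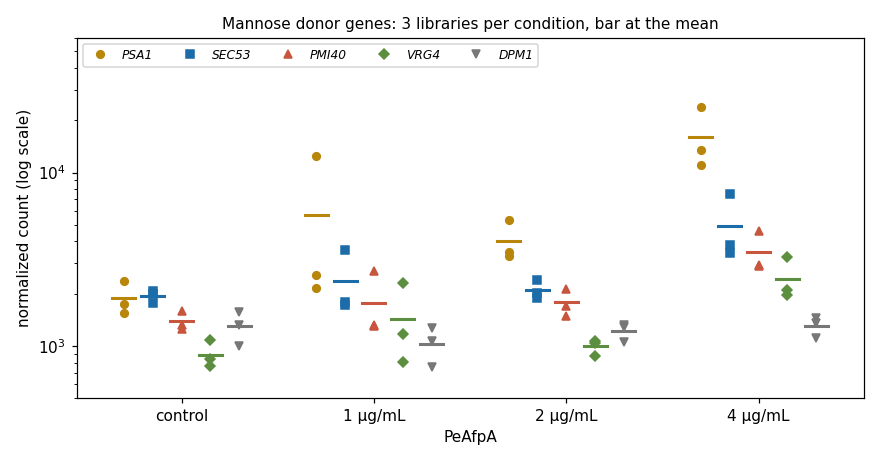
Normalized counts (log axis) of the 5 mannose donor genes in the 3 libraries of each condition, with a bar at the mean. At 4 µg/mL PSA1 has 10986 to 23919 and lies above its controls of 1555 to 2380, while DPM1 stays between 1108 and 1448; the single high PSA1 point at 1 µg/mL is library 2A.

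The 5 donor genes together had 838 ± 20.2 TPM in the controls and 2325 ± 478 at 4 µg/mL (SD, n = 3), a ratio of 2.78 that was 1.68 without PSA1. The summed TPM of the oligosaccharyltransferase genes had a ratio of 1.38, of the O-mannosylation genes 1.18, of the Golgi genes 1.09 and of the lipid-linked oligosaccharide genes 0.97. Scaled by TMM, the same sums gave a higher ratio in each group. The ratios were 3.57 for the donor genes (2.15 without PSA1), 1.74 for the oligosaccharyltransferase and 1.49 for O-mannosylation. For the Golgi genes the TMM ratio was 1.36 and for the lipid-linked oligosaccharide 1.21, so the direction of the last depended on the scale. The donor sum was 1685 TPM in library 2A, against 835 and 768 in 2B and 2C. Within the route the enzymes also changed in proportion. The TPM ratio of PSA1 to SEC53 was 0.70 ± 0.22 in the controls and 2.33 ± 0.14 at 4 µg/mL (SD, n = 3), and the groups did not overlap. SEC53 was the most abundant of the 5 in the controls, at 272 ± 23.4 TPM.

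Promoter sequences are given for the 4 donor genes that rose and for 3 PMT genes that rose or fell, so that they can be compared over the same stretch. Each is the 200 bases from 250 to 51 bases before the start codon, read 5′ to 3′ on the strand of the gene from the R64 assembly (RefSeq). Capitals mark matches on either strand to motifs that were searched over the region from 250 bases before to 50 bases after the start: SCB (CACGAAA or CGCGAAA, the site of the cell cycle factor SBF), the UPRE core (CAGNGTG, of the unfolded protein response), MCB (ACGCGT), STRE (AGGGG, of the general stress factors) and PAC (GATGAG, of ribosome biogenesis genes).
PSA1 (chrIV:356810-357009, minus strand): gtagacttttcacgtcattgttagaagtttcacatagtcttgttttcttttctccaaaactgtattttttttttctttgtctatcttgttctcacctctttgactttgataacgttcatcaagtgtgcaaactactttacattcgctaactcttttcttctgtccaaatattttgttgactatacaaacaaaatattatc
SEC53 (chrVI:44443-44642, minus strand): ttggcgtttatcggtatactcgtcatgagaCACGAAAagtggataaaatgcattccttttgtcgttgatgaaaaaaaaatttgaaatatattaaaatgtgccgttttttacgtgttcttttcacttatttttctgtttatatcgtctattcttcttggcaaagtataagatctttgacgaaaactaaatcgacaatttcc
PMI40 (chrV:159169-159368, minus strand): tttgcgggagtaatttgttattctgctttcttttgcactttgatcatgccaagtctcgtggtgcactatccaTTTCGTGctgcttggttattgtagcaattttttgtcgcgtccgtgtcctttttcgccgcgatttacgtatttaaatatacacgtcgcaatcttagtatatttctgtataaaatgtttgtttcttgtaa
VRG4 (chrVII:76644-76843, plus strand): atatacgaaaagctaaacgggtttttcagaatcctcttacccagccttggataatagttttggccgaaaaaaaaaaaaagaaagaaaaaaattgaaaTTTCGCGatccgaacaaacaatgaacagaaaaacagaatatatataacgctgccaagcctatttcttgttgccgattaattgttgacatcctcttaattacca
PMT2 (chrI:108602-108801, minus strand): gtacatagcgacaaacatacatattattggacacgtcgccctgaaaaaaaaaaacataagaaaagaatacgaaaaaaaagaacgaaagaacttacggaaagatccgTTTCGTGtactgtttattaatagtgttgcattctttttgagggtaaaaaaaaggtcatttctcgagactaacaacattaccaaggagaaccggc
PMT5 (chrIV:289659-289858, plus strand): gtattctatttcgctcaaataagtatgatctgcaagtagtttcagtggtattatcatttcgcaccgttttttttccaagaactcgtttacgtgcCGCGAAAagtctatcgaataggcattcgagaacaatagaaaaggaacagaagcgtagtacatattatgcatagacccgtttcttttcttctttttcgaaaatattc
PMT3 (chrXV:915780-915979, plus strand): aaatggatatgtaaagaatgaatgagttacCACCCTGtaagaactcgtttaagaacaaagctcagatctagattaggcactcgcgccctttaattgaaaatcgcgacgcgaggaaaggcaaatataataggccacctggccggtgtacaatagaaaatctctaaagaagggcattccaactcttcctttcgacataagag

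SCB letters were present in 12 of the 47 promoters (PMT2, PMT4, PMT5, PMT6, OST5, STT3, ALG2, ALG7, ALG14, VRG4, PMI40 and SEC53), while 7.83% of 5897 promoters of the genome hold them. Of these 12 genes, 8 rose at 4 µg/mL and 1 fell, and of the 35 genes without the letters 14 rose and 2 fell. The promoter of PSA1, the gene with the largest change, held no SCB match, and that of PMT5, which fell, held one. The UPRE core was found in 3 member promoters (PMT3, ALG9 and ALG11), of which none rose, against 5.49% of all promoters. MCB was found in 1 (3.12% of all), STRE in 4 (22% of all) and PAC in 5 (19.9% of all). These are counts of letters, with no test, and do not show that a factor binds.

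The genes of O-mannosylation moved in both directions. The Pmt proteins act as pairs, in which Pmt1 or Pmt5 partners Pmt2 or Pmt3, while Pmt4 works with itself. PMT1, PMT2 and PMT4 rose and PMT3 and PMT5 fell, so the partners Pmt1 and Pmt2 rose together at the level of RNA and the partners Pmt5 and Pmt3 fell together. PMT2 (YAL023C, chrI:106272-108551, minus strand) had 1445, 1517 and 1897 in the controls and 2422, 2779 and 5578 at 4 µg/mL (log2 fold change 1.15, SE 0.28, edgeR adjusted p = 0.0074). PMT3 (YOR321W, chrXV:916030-918291, plus strand) had 521, 550 and 560 in the controls and 343, 341 and 422 at 4 µg/mL (log2 fold change -0.56, SE 0.16, edgeR adjusted p = 0.016). In both genes the groups did not overlap, and in PMT3 4C was the highest of the 3 treated libraries too. The PMT3 call was lost without 1C (edgeR adjusted p = 0.053) and without 4B (0.059), at log2 fold changes of -0.54 and -0.51. The coding sequences of PMT2 and PMT3 share a stretch of 1611 to 1614 bases with 71.3% identity, below the 95% over 75 bases that was set as the limit for reads that could be split between copies.

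PMT4 had 1024, 1048 and 1073 in the controls and 1614, 1608 and 2258 at 4 µg/mL (log2 fold change 0.80, SE 0.17, edgeR adjusted p = 0.0037). Its controls lay within 50 counts of each other. PMT5 had 558, 547 and 556 in the controls and 432, 343 and 304 at 4 µg/mL (log2 fold change -0.62, SE 0.15, edgeR adjusted p = 0.0084). PMT5 was low in 4C, the library in which PMT1 and PMT2 were highest.

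**Figure D3:**
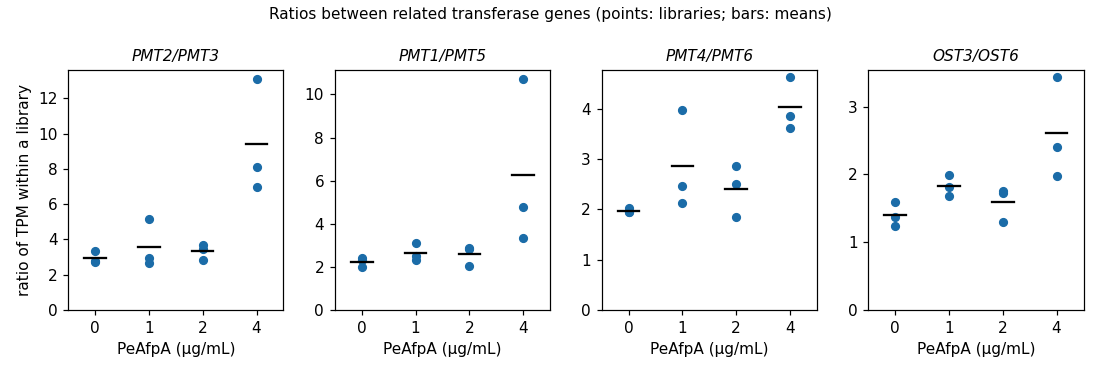
Ratios of TPM between related genes within each library, for PMT2 to PMT3, PMT1 to PMT5, PMT4 to PMT6 and OST3 to OST6, with points for libraries and bars for means. The PMT2 to PMT3 ratio is 2.74 to 3.36 in the controls and 6.99 to 13.1 at 4 µg/mL, and in each panel the 3 points at 4 µg/mL lie above the 3 controls.

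Within a library the ratio of 2 genes does not depend on the scaling. The TPM ratio of PMT2 to PMT3 was 2.95 ± 0.35 in the controls and 9.39 ± 3.26 at 4 µg/mL (SD, n = 3), that of PMT1 to PMT5 2.24 ± 0.23 and 6.28 ± 3.90, and that of PMT4 to PMT6 1.97 ± 0.05 and 4.04 ± 0.53. None of these 3 ratios overlapped between the groups. At 1 µg/mL the PMT2 to PMT3 ratio was 5.16 in 2A and 2.93 and 2.69 in 2B and 2C, and the PMT1 to PMT5 ratio also overlapped its controls. The PMT4 to PMT6 ratio was 3.98, 2.12 and 2.47 there, all above its controls of 1.94 to 2.03. The OST3 to OST6 ratio was 1.99, 1.68 and 1.81, all above its controls of 1.24 to 1.60. At 2 µg/mL each of these ratios overlapped its controls. The ratios show unequal change and not which gene of the pair moved.

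PMT1 rose by 0.77 on the log2 scale (SE 0.25, edgeR adjusted p = 0.026), and KTR1, whose product adds the next mannoses of O-linked chains, by 0.95 (SE 0.29, edgeR adjusted p = 0.022). Neither passed the test without 4C, where their adjusted p were 0.098 and 0.095. PMT6 had a log2 fold change of -0.24 and did not pass the test. KRE2, a relative of KTR1 with the same kind of activity, was the most abundant of the 8 in the controls at 332 ± 28.2 TPM (SD, n = 3). KRE2 had 4442, 4110 and 3826 normalized counts in the controls and 4700, 5117 and 5677 at 4 µg/mL, without overlap, but its log2 fold change of 0.32 did not pass the test (SE 0.20, edgeR adjusted p = 0.20). In TPM its groups overlapped, at 362, 305 and 329 in the controls and 342, 354 and 303 at 4 µg/mL.

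In the assembly of the lipid-linked oligosaccharide, 4 genes rose: ALG7 and ALG14 act at the first steps, and ALG5 and ALG8 in the supply and addition of glucose. ALG7 (YBR243C), whose product adds the first sugar phosphate to dolichol phosphate and is the target of tunicamycin, had 242, 371 and 294 in the controls and 571, 577 and 804 at 4 µg/mL (log2 fold change 1.11, SE 0.25, edgeR adjusted p = 0.0054). ALG14, the membrane anchor of the enzyme for the next sugar, had 205, 302 and 206 in the controls and 480, 505 and 667 at 4 µg/mL (log2 fold change 1.21, SE 0.30, edgeR adjusted p = 0.0086). ALG13, the catalytic partner of Alg14, did not follow it: its log2 fold change was 0.08, with a 95% interval from -0.39 to 0.54. The TPM ratio of ALG14 to ALG13 was 0.77 ± 0.06 in the controls and 1.71 ± 0.27 at 4 µg/mL (SD, n = 3), and the groups did not overlap.

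ALG5, which encodes the synthase of dolichol phosphate glucose, had 398, 387 and 333 in the controls and 591, 652 and 763 at 4 µg/mL (log2 fold change 0.84, SE 0.18, edgeR adjusted p = 0.0041). ALG8, a glucosyltransferase that draws on that donor, rose by 0.58 (SE 0.22, edgeR adjusted p = 0.0495), and the call was lost without 4C. ALG1, which adds the first mannose and was the most abundant gene of this group in the controls at 74.9 ± 6.84 TPM (SD, n = 3), fell. Its counts were 939, 928 and 965 in the controls and 790, 737 and 583 at 4 µg/mL (log2 fold change -0.42, SE 0.14, edgeR adjusted p = 0.027), and without 4C the adjusted p was 0.12. ALG1 was also below all controls in every library of condition 2, at 673, 716 and 710. Of the other 9 genes of the group, which did not pass the test, the 8 given here had log2 fold changes from -0.31 (ALG11) to 0.49 (ALG2).

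Of the 9 genes of the oligosaccharyltransferase 6 rose, none fell, and in 8 the libraries at 4 µg/mL were all above the controls. OST2 (YOR103C) had 480, 413 and 453 in the controls and 1064, 985 and 1597 at 4 µg/mL (log2 fold change 1.44, SE 0.33, edgeR adjusted p = 0.0062). SWP1 had 1100, 1147 and 1199 in the controls and 1810, 2019 and 2936 at 4 µg/mL (log2 fold change 0.97, SE 0.19, edgeR adjusted p = 0.0031). OST1 had 1520, 1454 and 1702 in the controls and 2468, 2602 and 3537 at 4 µg/mL (log2 fold change 0.88, SE 0.20, edgeR adjusted p = 0.0056). These encode non-catalytic subunits of the complex, and each was about as high in 4A as in 4B.

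OST3 and OST6 encode alternative thioredoxin-like subunits that define different forms of the complex. OST3 (YOR085W) had 557, 609 and 765 in the controls and 1010, 1098 and 1386 at 4 µg/mL (log2 fold change 0.85, SE 0.16, edgeR adjusted p = 0.0024). OST6 had a log2 fold change of 0.00 with a 95% interval from -0.29 to 0.28. Their TPM ratio was 1.40 ± 0.18 in the controls and 2.61 ± 0.75 at 4 µg/mL (SD, n = 3), without overlap. STT3, the catalytic subunit, rose by 0.56 (SE 0.18, edgeR adjusted p = 0.026) and WBP1 by 0.40 (SE 0.15, edgeR adjusted p = 0.044), and both calls were lost without 4C.

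OST4, a very small subunit and the most abundant of the 9 at 177 ± 50.1 TPM in the controls (SD, n = 3), had 123, 222 and 208 normalized counts in the controls and 223, 225 and 281 at 4 µg/mL. Its control mean of 184 normalized counts was the lowest of the 9. The TPM rank of OST4 thus rests on the division by its coding length of 111 bases. OST4 did not pass the test (log2 fold change 0.39, edgeR adjusted p = 0.18). OST5 had 344, 346 and 362 in the controls and 638, 650 and 726 at 4 µg/mL, but an adjusted p of 0.14 in edgeR (log2 fold change 0.94, SE 0.49). Across the other conditions OST5 was uneven, with 107 in 2C, 156 in 3A and 93.5 in 3B against 541 in 2A, 296 in 2B and 373 in 3C. When only conditions 1 and 4 were fitted, OST5 rose (edgeR adjusted p = 0.000693). The 256 genes with coding sequences of at most 300 bases had median deviations between -0.02 and 0.01 on the log2 scale in 2C, 3A and 3B, and 0.26, 0.21, 0.18 and 0.23 in 2A, 4A, 4B and 4C. The part of coding length in the OST5 values was not tested.

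In the Golgi, OCH1 had the lowest adjusted p of the 47 genes. Its product adds the first mannose of the outer chain. OCH1 (YGL038C, chrVII:425362-426804, minus strand) had 1345, 1677 and 1563 in the controls and 3962, 3509 and 4091 at 4 µg/mL (log2 fold change 1.33, SE 0.25, edgeR adjusted p = 0.0023). The 3 libraries of condition 4 were close to each other, and here 4C did not stand apart. MNN1 (YER001W), which encodes the enzyme that adds terminal mannoses, had 1603, 1044 and 1021 in the controls and 2698, 2180 and 2710 at 4 µg/mL (log2 fold change 1.05, SE 0.28, edgeR adjusted p = 0.011). MNN1 was also above all controls in each library of condition 3, at 2475, 1801 and 1668, which gave an unadjusted p of 0.025 and no call.

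MNN9, a subunit shared by both mannan polymerases, had 1136, 1197 and 1177 in the controls and 1456, 1478 and 2195 at 4 µg/mL (log2 fold change 0.55, SE 0.18, edgeR adjusted p = 0.029). MNN10, a subunit of the second polymerase, had 1111, 1050 and 1131 in the controls and 1315, 1304 and 1482 at 4 µg/mL (log2 fold change 0.32, SE 0.12, edgeR adjusted p = 0.045). In both genes 4C was the highest library in normalized counts, and neither passed the test without it. In TPM 4C was still the highest for MNN9 but the lowest of condition 4 for MNN10. MNN10 had 99.5 ± 10.8 TPM in the controls and 99.4 ± 9.49 at 4 µg/mL (SD, n = 3). MNN10 had the smallest of the 22 rises and had an adjusted p of 0.53 when libraries were scaled by their totals alone.

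ANP1, another subunit of the second polymerase, was the most abundant Golgi gene in the controls at 117 ± 17.7 TPM (SD, n = 3). ANP1 had 1811, 1468 and 1618 normalized counts in the controls and 2063, 1780 and 2290 at 4 µg/mL, with overlap and no call (log2 fold change 0.32, SE 0.15, edgeR adjusted p = 0.090). VAN1, MNN11 and HOC1, the remaining polymerase subunits, had log2 fold changes of 0.14, -0.05 and 0.29. MNN2 and MNN5, which start and extend the branches, had -0.02 and -0.22, and MNN4, needed for mannosylphosphate, had -0.11. None of these 6 passed the test.

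**Figure D4:**
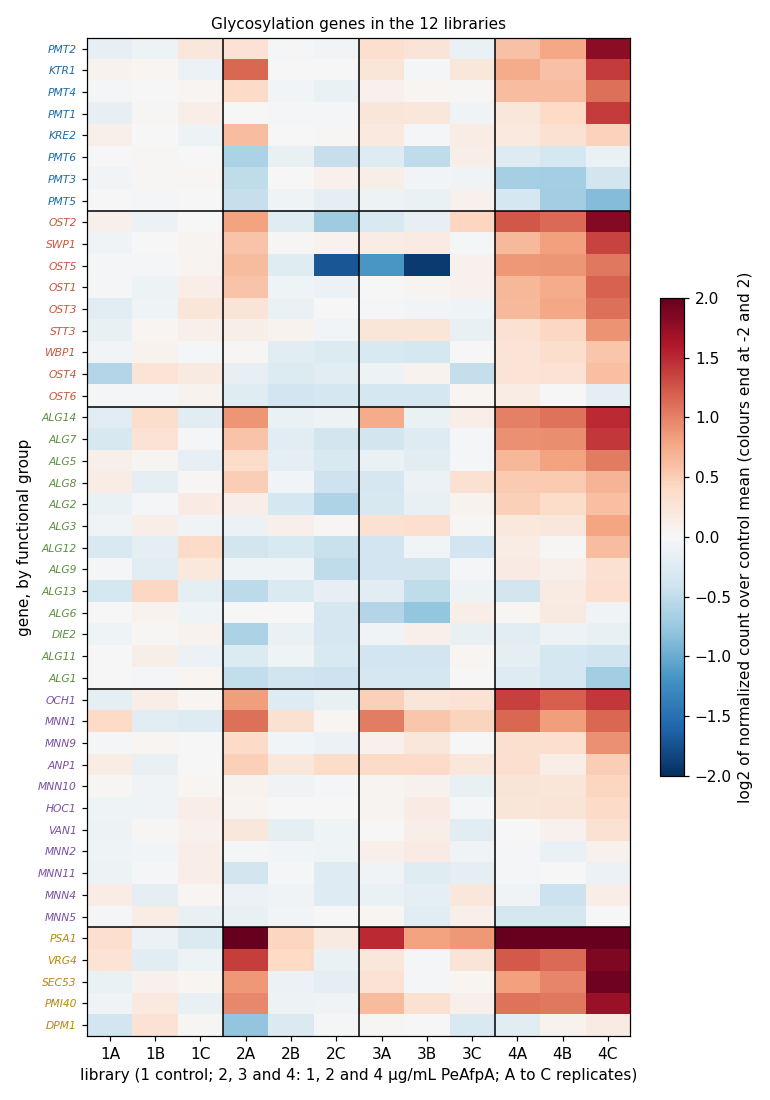
Log2 of the normalized count of 46 of the 47 genes over its control mean in the 12 libraries, by functional group and ordered by fold change at 4 µg/mL; colours end at -2 and 2. The genes of mannose donor supply other than DPM1 are red in 4A to 4C and in 2A, and OST5 is blue in 2C, 3A and 3B.

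At 1 and 2 µg/mL no glycosylation gene rose or fell in edgeR's test, where 0% of all genes passed it. At 2 µg/mL, 2 of the 47 had an unadjusted p under 0.05 (MNN1 and ANP1), against 9.69% of all genes. The libraries at 2 µg/mL were all above the controls for 4 genes, MNN1, ANP1, OCH1 and PSA1 (8.67% of all genes), and all below for none (9.22% of all). OCH1 had 2131, 1805 and 1858 at 2 µg/mL. DESeq2 called 0 of the 47 at 2 µg/mL, where it called 0.39% of all genes higher and 0.186% lower, and limma-voom with sample weights called 4 higher (MNN1, ANP1, PMI40 and PSA1) and 5 lower (OST5, OST6, ALG1, ALG6 and ALG9), where it called 9.45% and 12.2% of all genes.

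At 1 µg/mL, 6 of the 47 had an unadjusted p under 0.05 (PMT6, OST6, ALG1, DIE2, ANP1 and PSA1), against 9.08% of all genes. All 3 libraries were above the controls for ANP1 alone (7.54% of all genes) and below them for 6 genes, PMT5, PMT6, OST6, ALG1, DIE2 and ALG12 (8.5% of all). DESeq2, which called 0.0508% of all genes higher and 0% lower here, called none of the 47, and neither did limma-voom, which called 0 of the 5903 genes. ANP1 was thus above all controls in every library at 1 and at 2 µg/mL, with log2 fold changes of 0.36 and 0.33, though not in every library at 4 µg/mL.

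The comparison of 4 with 2 µg/mL does not use the control libraries, although it shares condition 4 with the comparison above. In it 18 of the 47 genes were higher and 2 were lower, against 15.4% and 18.8% of all genes (34.2% in either direction). The libraries at 4 µg/mL were all above those at 2 µg/mL for 26 of the 47 (24.4% of all genes) and all below for 2 (28% of all). Higher in both comparisons were 16 genes: PMT2, PMT4, OST1, OST2, OST3, SWP1, WBP1, ALG5, ALG7, ALG8, ALG14, OCH1, VRG4, PMI40, SEC53 and PSA1. OST5 and ALG2 passed the test only here, at log2 fold changes of 1.68 and 0.62, and both calls were lost without 3A, without 3B and without 4C, with an OST5 log2 fold change between 1.34 and 2.40. The lower genes were again PMT3 and PMT5. PSA1 was 4.01-fold higher (log2 fold change 2.00, SE 0.58, edgeR adjusted p = 0.021), but did not pass without 3B (0.076), without 3C (0.061) or without 4C (0.080). MNN1, which rose against control, had a log2 fold change of 0.35 here and did not pass. Without 4C, 9 genes were higher and 1 was lower, where 5.76% of all genes were higher and 9.67% lower, and without 3B also 9 and 1, where 5.98% and 12.1% of all genes were. The calls of 9 genes held whichever of the 12 libraries was left out: PMT4, OST1, OST2, OST3, SWP1, WBP1, ALG5, ALG7 and OCH1.

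Of 44 other genes of glycosylation, on 6 further lists, 9 rose and 7 fell at 4 µg/mL, with a median log2 fold change of -0.09. Over all genes tested 19.3% rose and 23% fell in this comparison, shares that hold beside every list below. The rises among the 44 genes lay near that share. Among 11 other O-glycan enzymes 2 rose: KTR2, of the KRE2 family, by 1.93 (SE 0.35, edgeR adjusted p = 0.0020), and KTR6, needed for mannosylphosphate, by 0.42. KTR2 had 288.1, 375 and 359 in the controls and 1010, 1262 and 1630 at 4 µg/mL, without overlap. None of 6 genes of dolichol synthesis and recycling passed the test. Of 9 genes of glycan trimming and quality control in the endoplasmic reticulum none rose and 4 fell, among them CNE1 (calnexin, -0.61) and PNG1 (the glycanase that removes N-glycans from misfolded proteins, -0.40).

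On a list of 8 other genes of Golgi and related glycosylation, 4 rose and 1 fell. The rises included GDA1, whose product clears the GDP left by mannose transfer and so keeps GDP-mannose import going, at 1.25 (SE 0.27, edgeR adjusted p = 0.0043), and PMR1, the Golgi calcium and manganese pump, at 0.68. EOS1 fell by 0.57. Among the 5 mannosyltransferase genes of GPI anchors, GPI18 had 279, 203 and 235 in the controls and 1155, 1254 and 1152 at 4 µg/mL (log2 fold change 2.31, SE 0.68, edgeR adjusted p = 0.018). It had 1372 in library 2A. PBN1 and GPI14, which encode the subunits that add the first mannose of the anchor, fell by 0.91 and 0.59. Of the 5 genes of UDP-sugar supply, GFA1, which encodes the first enzyme of the route to chitin and N-glycan precursors, rose by 2.02 (SE 0.40, edgeR adjusted p = 0.0031) and PCM1 by 0.52.

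2 further gene lists moved with condition 4. Of 11 ER chaperone and unfolded protein response genes 7 rose and none fell, with HAC1 at 1.97 and SIL1 at 1.42 as the largest. Among those not called, KAR2 had 4854 to 7238 in the controls and 5515, 6815 and 26866 in 4A, 4B and 4C. ERO1 had 1118 to 2291 in the controls and 1332, 1297 and 4319, so both were high in 4C alone. The summed normalized counts of the 11 genes were 17804 to 20833 in the controls, 25285 in 4A, 31783 in 4B and 76816 in 4C. In condition 2 the sum was 25478 in 2A, against 20072 and 19069 in 2B and 2C. Of 10 glucose-repressed genes, which mark cells that have used up their glucose, all 10 fell, with ADY2 at -7.73 and ADH2 at -7.32. Their sum was 187453 to 266532 in the controls and 11894, 5481 and 2741 in 4A, 4B and 4C. It was 252438 in 2A, within the range of the controls, but the genes in the sum did not move together there. ADY2, YAT1, MLS1, ACS1 and CYB2 were below all controls in 2A. ICL1, FBP1, PCK1 and JEN1 were above all controls, and ADH2 lay between them. In condition 3 the sum was 86135 in 3A, 138717 in 3B and 268183 in 3C. The part of ER chaperone induction and of the growth state of the culture in the glycosylation results was not tested.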

How the data were processed

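Total RNA was extracted from whole cultures, and TruSeq v2 libraries made from it, which do not mark strand, were sequenced as single-end reads. The authors trimmed the reads with Trimmomatic (0.39), mapped them with Bowtie2 (2.3.2) to the S288C genome of release R64 and counted reads per gene with HTSeq (0.9.0); the deposited table holds these raw counts for 6600 features and 12 libraries, without normalization. How the counting treated strand, overlapping genes and multiple hits is not given in the sources used here. Conditions were taken from the sample titles. The p-values measure the spread between flasks within conditions, estimated over all 4 conditions together, and so also over the conditions that are not compared.

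Of the 6600 features, 5917 were matched to the RefSeq annotation of R64 and 683 were not. Genes with a mean of at least 1 TPM, or 1 CPM for the 247 kept without a coding length, were tested (5903). A single model of the 4 conditions was fitted to the TMM-scaled counts by quasi-likelihood (edgeR 4.0.16 under R 4.3.3), and p-values were adjusted over all 5903 genes with a threshold of 0.05. SE was taken from the fold change and its F value, as |log2 fold change| over √F. The 95% intervals were taken from this SE by the normal approximation, which makes them somewhat too narrow with 3 libraries per condition. In counts simulated for 4 µg/mL against control over 5903 genes, edgeR found 98.7% of those with a log2 change of 2 and 72.7% of those with a log2 change of 1. On average it called 9.67 unchanged genes. Few genes were changed in the simulation, in random directions and none of low count, while 42.3% of genes passed in the data. These shares therefore need not hold for the data. The alternatives were DESeq2 1.42.0, limma-voom (limma 3.58.1), other scalings and filters, only the groups compared, a replicate block, and leaving out each library. With blastn 2.17.0, 0 of the 47 genes had a copy of at least 95% identity over 75 bases elsewhere in the genome, and 0 overlapped another annotated gene; the 683 unmatched features could not be checked for overlap. Library sizes hold no rows without a gene name.

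The members and all gene lists were chosen with earlier results of these data known. Counts are over all 47 members, and the single values of 1 member are not reported here. Values in each library are given for the up to 4 members per functional group with the lowest adjusted p at 4 µg/mL among those called, and for the most abundant member of each group in the controls. DPM1 and OST5 were added to these after their values were seen. From the other lists, the called genes with the 2 largest rises and the 2 largest falls were named, besides the strain check genes. KAR2 and ERO1, and the glucose-repressed genes in library 2A, were added after their values were seen.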

Additional observations from a re-analysis of the deposited data

How the results depend on the processing

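Over the 22 alternatives, 16 of the 25 genes called at 4 µg/mL were called in every one (PMT2, PMT4, PMT5, OST1, OST2, OST3, SWP1, ALG5, ALG7, ALG14, MNN1, OCH1, VRG4, PMI40, SEC53 and PSA1), and the number called higher lay between 15 and 27. Over all genes these alternatives called 1491 to 3477 in either direction, against 2497 in the fit used above. Scaling by library size alone moved the median of all genes at 4 µg/mL from -0.04 to -0.23. It called 16 glycosylation genes higher and 5 lower, with 2 Golgi genes higher and 1 lower and 2 lipid-linked oligosaccharide genes lower. Of all 5903 genes it called 2327 in either direction. limma-voom called 7 lower, among them 2 Golgi and 2 lipid-linked oligosaccharide genes, 4 higher and 5 lower at 2 µg/mL, and 4 lower at 4 against 2 µg/mL. In either direction limma-voom called 3477 of all 5903 genes at 4 µg/mL, 1279 at 2 µg/mL and 3462 at 4 against 2 µg/mL. Libraries with the same letter did not pair across conditions: only 6 of 18 same-letter pairs had correlated deviations above 0.1 (range -0.365 to 0.250), so the fit with a replicate block is given only here. The replicate block called 18 higher and 2 lower at 4 µg/mL, with 2 Golgi genes higher and 0 lipid-linked oligosaccharide genes lower. It called 17 higher and 2 lower at 4 against 2 µg/mL. Over all 5903 genes it called 2217 in either direction at 4 µg/mL and 1627 at 4 against 2 µg/mL. Without both 2A and 4C, chosen after seeing the data, 0 lipid-linked oligosaccharide genes were lower at 4 µg/mL, where 2334 of all 5903 genes were called. In that fit 1 gene was higher at 2 µg/mL, where 72 of all genes were called in either direction. Leaving out 1 library at a time gave, at 4 µg/mL, 15 to 23 genes higher and 1 to 4 lower, for O-mannosylation 2 to 4 higher and 1 to 2 lower, for the Golgi 2 to 4 higher, and for the lipid-linked oligosaccharide 0 to 2 lower. It gave 0 to 1 lower at 2 µg/mL, and 9 to 23 higher and 0 to 2 lower at 4 against 2 µg/mL. Over all genes these fits called, in either direction, 1491 to 2783 at 4 µg/mL, 0 to 132 at 2 µg/mL and 911 to 2483 at 4 against 2 µg/mL. The cause of these changes was not tested.

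The fold changes whose sign turned belonged to genes that passed the test in neither setting. OST6 was at 0.036 with RLE factors, 0.038 with DESeq2 with or without its independent filtering, 0.0042 with limma-voom and 0.096 without 2A and 4C. MNN2 was at 0.0195 with RLE factors and 0.0188 with DESeq2 under both filterings. With library size alone ALG6 was at -0.13, ALG9 at -0.0127, ALG13 at -0.13, VAN1 at -0.065 and DPM1 at -0.19, and without 2A and 4C ALG13 was at -0.0545 and DPM1 at -0.0492. Leaving out single libraries gave -0.0874 to 0.0959 for OST6, -0.013 to 0.13 for ALG6, -0.0737 to 0.34 for ALG13, -0.0608 to 0.0486 for MNN2, -0.22 to 0.033 for MNN4, -0.10 to 0.0199 for MNN11 and -0.14 to 0.18 for DPM1 on the log2 scale.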
